A study of Mus musculus with 9 samples.

Results

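The lactate dehydrogenase genes of mouse testis were taken by name from the gene table: Ldha, Ldhb, Ldhc, Ldhal6b and Ldhd, which are 5 of the 38674 genes listed. The set was chosen by name, but with the normalized counts of Ldha and Ldhc in these animals in view: the 2 genes lie side by side on chromosome 7 and were known to differ in large steps between animals, so their values are given as a description. Each of the 5 has 1 row in the table, 4 have reads, and Ldhal6b has 0 reads in all 9 animals. RNA came from whole testis, without the tunica albuginea, of male C57BL/6 mice that were Pfn3+/+ (WT), Pfn3+/– (Het) or Pfn3–/– (KO), with 3 animals of each genotype. Pfn3 encodes profilin 3, an actin-binding protein of spermatids, and was disrupted by CRISPR/Cas9 in zygotes. The study's methods describe its males as sexually mature. Several deletion lines were made, and which of them was sequenced is not given in the sources used here. Separate animals are named by number within a genotype, and whole tissue was measured, so fewer cells of a type and less RNA per cell cannot be told apart.

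Lactate dehydrogenase interconverts pyruvate and lactate while NADH and its oxidised form are exchanged. The enzyme is a tetramer: Ldha encodes the subunit dominant in muscle, Ldhb the subunit dominant in heart, and Ldhc a subunit made in male germ cells from meiosis onwards and carried into sperm. Sertoli cells release lactate that germ cells take up as fuel, and Ldhc is required for sperm motility in mice. Ldhal6b is an intronless lactate dehydrogenase-like gene, and Ldhd encodes an unrelated mitochondrial flavoprotein that oxidises D-lactate.

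In GRCm38, Ldha (ENSMUSG00000063229) is on chromosome 7, plus strand, between 46841475 and 46855627, and Ldhc (ENSMUSG00000030851) follows on the same strand from 46861203 to 46878142. The annotated genes are 5575 bases apart. Ldhb (ENSMUSG00000030246) lies on the minus strand of chromosome 6 from 142490249 to 142507957, and Ldhd (ENSMUSG00000031958) on the minus strand of chromosome 8 from 111623785 to 111630374. Ldhal6b (ENSMUSG00000101959) is a single exon of 1445 bases on the minus strand of chromosome 17 from 5417323 to 5418767.

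The promoters of Ldha and Ldhc are shown because these genes differed in steps between animals, and that of Ldhb because it did not. Each window holds 250 bases before and 50 bases after a RefSeq gene start in GRCm38.p6, written 5′ to 3′ on the strand of the gene, at chr7:46845554-46845853 for Ldha, chr7:46861013-46861312 for Ldhc and chr6:142507908-142508207 for Ldhb. Capitals mark short motifs found on either strand. The core of the cAMP response element was searched as TGACGT in every window. The GC box, known to be bound by the factors of the Sp family, was searched as GGGCGG in the same way. The E-box, which basic helix-loop-helix factors are known to bind, was searched as CACGTG on both strands. The box near which the basal transcription machinery assembles in some promoters was searched as TATAAA likewise.
Ldha: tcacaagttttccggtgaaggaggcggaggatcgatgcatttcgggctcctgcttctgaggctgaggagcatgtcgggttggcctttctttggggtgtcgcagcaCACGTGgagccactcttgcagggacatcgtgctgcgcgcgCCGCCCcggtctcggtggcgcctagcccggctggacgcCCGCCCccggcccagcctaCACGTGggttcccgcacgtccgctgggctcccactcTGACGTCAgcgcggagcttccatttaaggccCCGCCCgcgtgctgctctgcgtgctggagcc
Ldhc: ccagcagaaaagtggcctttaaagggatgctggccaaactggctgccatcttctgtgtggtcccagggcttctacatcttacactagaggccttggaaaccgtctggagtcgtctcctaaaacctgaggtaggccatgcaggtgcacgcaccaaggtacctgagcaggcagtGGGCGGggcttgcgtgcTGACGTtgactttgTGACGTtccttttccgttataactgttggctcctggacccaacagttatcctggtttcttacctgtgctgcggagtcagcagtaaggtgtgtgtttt
Ldhb: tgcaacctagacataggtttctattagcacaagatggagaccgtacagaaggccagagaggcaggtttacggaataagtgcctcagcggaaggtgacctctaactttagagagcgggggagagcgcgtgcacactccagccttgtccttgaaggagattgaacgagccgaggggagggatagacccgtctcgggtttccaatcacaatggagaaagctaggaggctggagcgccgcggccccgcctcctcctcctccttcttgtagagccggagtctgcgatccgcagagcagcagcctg

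The Ldha window held TGACGT on both strands in 1 palindrome that begins 12 bases before the start, and the Ldhc window held it at 2 separate places, 61 and 47 bases before the start. Of 32851 RefSeq windows of this length, 7.51% held it. GGGCGG was found at 3 places in the Ldha window and at 1 in the Ldhc window, 78 bases before the start, and 35.7% of all windows held it. CACGTG was found at 2 places in the Ldha window alone of these 3 and in 7.15% of all windows. The Ldhb window held none of these letters, and TATAAA, present in 13.6% of all windows, was in none of the 3. RefSeq lists a further start for Ldha and for Ldhc, and neither of those windows held any of these letters. The Ldhd window held 1 CACGTG, and the Ldhal6b window held TATAAA at 3 places, of which 2 overlap. These are matches of letters and no factor was measured.

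QuantSeq libraries take reads of 50 bases near the 3′ end of polyadenylated transcripts, so the 3′ ends decide whether related genes can be told apart. None of the 451 stretches of 50 bases in the last 500 bases of the longest coding transcripts of Ldha, Ldhc, Ldhd or Ldhal6b occurred in a transcript of another annotated gene. Of the stretches near the 3′ end of Ldhc, the nearest to any Ldha transcript differed at 9 of 50 bases, and the nearest of Ldha to Ldhc at 24. In Ldhb, 110 of the 451 stretches (24.4%) also occur in the processed copy Gm5514. Away from its 3′ end, Ldha shares 294 of 1766 stretches with other genes, chiefly pseudogenes such as Gm5452 and Ldha-ps2. Reads of Ldhb that fall in shared stretches are therefore uncertain, while the 3′ ends of Ldha and Ldhc share no stretch of read length.

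Between 3375546 and 4287335 reads were counted on genes per animal, and 3 reads, taken as the limit of detection, correspond to 2.58 to 3.71 normalized counts, that is, counts divided by 1 size factor per animal. Reads here are whole counts recovered from the deposited values. WT 1 and Het 1 stood apart from the other libraries. Their median Pearson correlations with the other 8 animals, across genes on the log2 scale, were 0.696 and 0.735, against 0.777 in KO 2 and 0.805 to 0.839 in the other 6 animals. Fold changes of the members, mean isoform ratios and list medians are therefore also given without WT 1 or Het 1, where a value remained. For Pfn3 itself the WT values ran from 373 to 592 normalized counts, the Het values from 136 to 339 and the KO values from 74.7 to 279. Since the 3′ end that is counted may lie outside the deleted bases, this level is no check of the deletion. Markers of the testis cell types were present, with summed values of 123388 to 249362 for elongating spermatids and 2392 to 5037 for Sertoli cells, whereas the epididymis list summed to at most 8.69, with Lcn5, Lcn8 and Lcn9 at 0 in all 9 animals.

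Ldhc was the most abundant lactate dehydrogenase transcript in every animal. It had 800, 28984 and 25591 normalized counts in WT 1, 2 and 3, then 1925, 27294 and 36443 in Het 1, 2 and 3, and 29795, 27977 and 34689 in KO 1, 2 and 3. Thus 7 animals lay close together, and WT 1 and Het 1 lay far below them. The gap between Het 1 and the next animal up, WT 3, was 13.3-fold, whereas the 7 upper animals spanned from 25591 to 36443. Ldhc took 0.648% to 1.004% of all reads on genes in these 7 animals, where it ranked 3rd to 6th among genes, and 0.019% in WT 1 and 0.055% in Het 1. Size factors ran from 0.808 to 1.16. The counts behind the low values were 646 reads in WT 1 (exact 95% Poisson interval 597 to 698) and 2037 in Het 1 (1949 to 2127), and such intervals cover counting error only.

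Ldha stood at 31.0 normalized counts in WT 1, 2333 in WT 2 and 1947 in WT 3. Het 1, 2 and 3 were at 14.2, 1992 and 15.9, and KO 1, 2 and 3 at 38.7, 19.3 and 24.1. It was thus high in WT 2, WT 3 and Het 2, and at most 38.7 in the other 6. The gap was 49.1-fold in normalized count plus 1, with no animal between. High levels were seen in 2 of 3 WT, 1 of 3 Het and 0 of 3 KO animals. In the low animals 15 to 45 reads were counted, which is above the limit of 3 reads, and in Het 1 the 15 reads have an exact 95% Poisson interval of 8.40 to 24.7. The WT 1 value lay inside the range of the KO animals.

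Ldhb was level across the animals, in contrast to its relatives on chromosome 7. The WT animals had 244, 249 and 183 normalized counts, the Het animals 251, 233 and 205, and the KO animals 219, 304 and 248. The highest value was 1.66 times the lowest over all 9 animals, and the mean was 237 ± 33.9 (SD, n = 9). WT 1 and Het 1, where Ldhc was low, lay inside the range of the other 7 animals.

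Ldhd was close to the limit of detection. The WT animals had 11.1, 5.79 and 7.72 normalized counts, the Het animals 0, 18.6 and 5.29, and the KO animals 4.29, 30.0 and 16.98. These values rest on 0 to 31 reads, and the genotypes overlapped. Ldhal6b was at 0 in all 9 animals, with an exact 95% Poisson upper limit of 4.57 normalized counts in WT 1, the shallowest library, and 3.17 in KO 1, the deepest. These limits cover counting error only, and not reads counted at genes that overlap Ldhal6b.

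**Figure D1:**
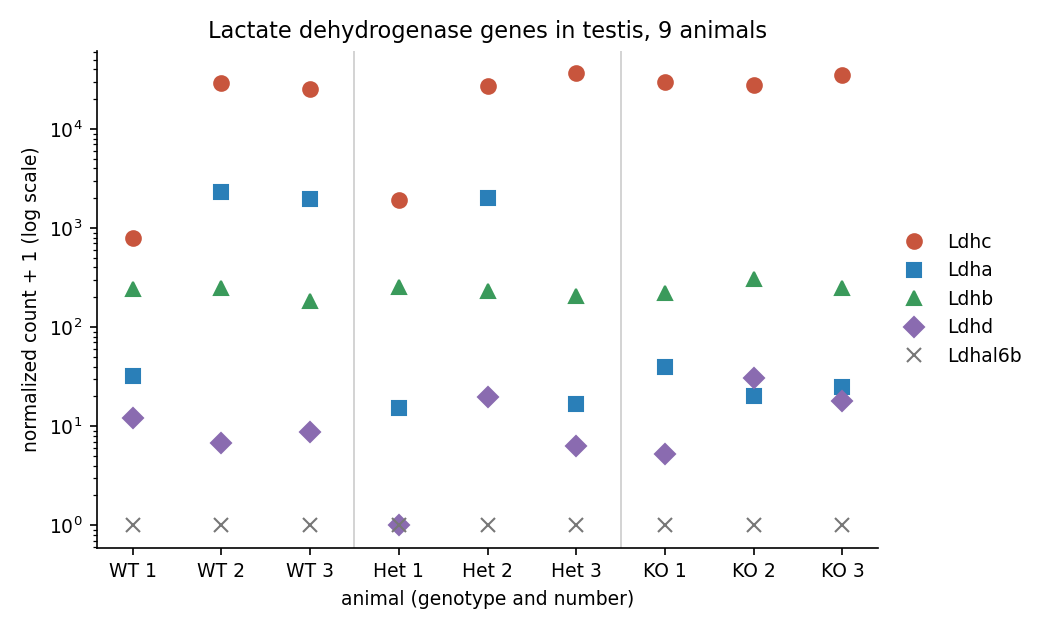
Normalized count plus 1 (log scale) of the 5 lactate dehydrogenase genes in each of the 9 animals, with 1 point per gene and animal and grey lines between genotypes. Ldhc lies above all other members everywhere but drops in WT 1 and Het 1, Ldha is high in WT 2, WT 3 and Het 2 alone, and Ldhb stays between 183 and 304.

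Ratios of isoforms were taken within each animal, where the scaling of a library cancels. Since about 1 read is taken per transcript, counts were not divided by length. There were 25.8, 12.4 and 13.1 Ldhc counts per Ldha count in WT 1, 2 and 3, against 135.8, 13.7 and 2296 in Het 1, 2 and 3 and 771, 1446 and 1438 in KO 1, 2 and 3. The ratio in WT 1 was near that of the other WT animals although both of its terms were far lower there. In Het 1 the ratio lay between, and in Het 3 it exceeded that of every KO animal. By genotype, the mean log2 ratio of Ldhc to Ldha was 4.01 ± 0.59 (WT), 7.34 ± 3.70 (Het) and 10.19 ± 0.52 (KO), each with the SD of 3 animals. Without WT 1 the WT mean was 3.68, and without Het 1 the Het mean was 7.47. When counts were divided by transcript length, these means were 4.42, 7.75 and 10.60.

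The place of Ldhb in the order depended on the animal. In WT 2, WT 3 and Het 2 the order of counts was Ldhc, Ldha, Ldhb and Ldhd, with 8.56 to 10.6 Ldha counts per Ldhb count. In the other 6 animals Ldhb came before Ldha, with 0.056 to 0.176 Ldha counts per Ldhb count. The log2 ratio of Ldhb to Ldha was −1.22 ± 3.64 in WT, 1.58 ± 4.06 in Het and 3.28 ± 0.74 in KO. The WT mean was −3.32 without WT 1, and the Het mean was 0.30 without Het 1 and 3.92 without Het 2. The log2 ratio of Ldhc to Ldhb averaged 5.23 in WT and 5.76 in Het, which became 6.99 without WT 1 and 7.17 without Het 1, against 6.91 in KO. In KO 2 Ldhd (31 reads) stood above Ldha (20 reads), and the counting intervals of these values overlap, as they do in WT 1, Het 3 and KO 3.

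Ldhc made up 91.8% to 99.4% of the summed counts of the 5 genes in 7 animals. In Het 1 it made up 87.9% and in WT 1 it made up 73.7%, where Ldhb reached 22.5%. Ldha made up 6.74% to 7.39% in its 3 high animals and at most 2.85% in the other 6. Summed over the genes, the lactate dehydrogenases reached 1086 normalized counts in WT 1, with 2190 in Het 1 and 27730 to 36669 in the other 7 animals. The low sums followed Ldhc, and the high Ldha of WT 2, WT 3 and Het 2 added 1947 to 2333 counts to sums of 27730 to 31571.

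**Figure D2:**
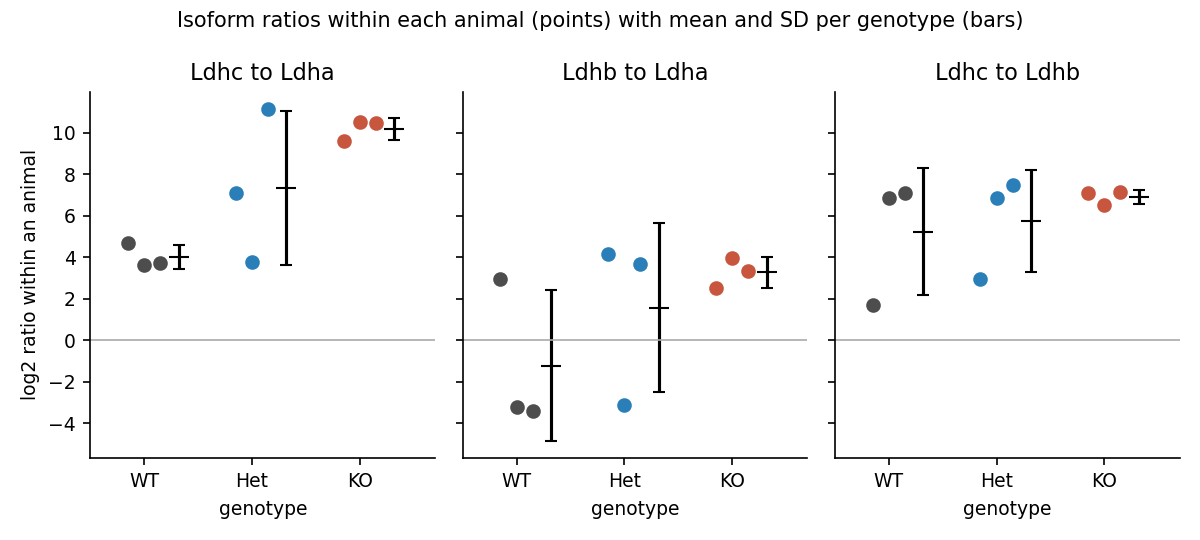
Log2 ratios of Ldhc to Ldha, Ldhb to Ldha and Ldhc to Ldhb within each animal, with 1 point per animal in numerical order by genotype and a bar for the mean and SD of 3 animals. The WT points for Ldhc to Ldha lie from 3.64 to 4.69 and the KO points from 9.59 to 10.50, whereas Ldhc to Ldhb sets WT 1 and Het 1 apart from the other 7 animals. WT 1 lies among the WT points with both genes low, at 31.0 normalized counts of Ldha, inside the KO range, and 800 of Ldhc.

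KO and WT animals were compared to ask whether the loss of Pfn3 changes these transcripts. Fold changes are from limma on log2(normalized count + 1) and understate changes of genes with few counts. A gene was called when its Benjamini-Hochberg adjusted p was under 0.05 and its absolute log2 fold change above 1.5. The log2 fold change of Ldha was −4.27 (SE 1.64), with 27.4 ± 10.1 normalized counts in KO and 1437 ± 1233 in WT (SD, n = 3 each). Without WT 1, the WT animal whose Ldha lay inside the KO range, it was −6.29 (SE 0.32). The smaller SE follows from leaving out that animal and is no sign of a firmer difference. Ldhc had 30820 ± 3471 in KO and 18458 ± 15387 in WT, a log2 fold change of 1.87 (SE 1.36) that came down to 0.17 (SE 0.14) without WT 1. No p is given for these 2 genes because their steps were known beforehand.

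For Ldhb the difference was smaller than the spread between animals, with 257 ± 43.0 in KO and 225 ± 36.4 in WT (SD, n = 3 each), a log2 fold change of 0.19 (SE 0.23, limma adjusted p = 0.741) that was 0.25 without WT 1. Ldhd had 17.1 ± 12.8 in KO and 8.22 ± 2.71 in WT, a log2 fold change of 0.68 (SE 0.73, limma adjusted p = 0.714). Without WT 1, Ldhd did not pass the filter on low values, so no such value is given. By limma 0 of the 4 members tested were called, beside 0.0352% of the 14223 genes tested, and 1 member had an unadjusted p under 0.05, beside 8.07% of genes. In 0 of the 4 the KO and WT animals were free of overlap, beside 19.9% of genes. On the recovered reads, edgeR called 0 of the 4, beside 5 of the 14223 genes. DESeq2 called 1, beside 101 of the 14223 genes. That 1 was Ldha, whose steps were known when it was taken up, so its call is no support for a difference. Its DESeq2 log2 fold change was −5.71. Nothing is read from these counts for Ldha and Ldhc.

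Het animals were compared with WT in the same way. The log2 fold change of Ldha was −2.72 (SE 2.49), with 674 ± 1141 normalized counts in Het (SD, n = 3). This value was −4.74 without WT 1, −1.52 without Het 1, −5.04 without Het 2 and −1.09 by edgeR and by DESeq2, which average counts and not logs. For Ldhc it was 0.56 (SE 1.75), with 21887 ± 17883 in Het, and it was −1.13 without WT 1, 1.91 without Het 1 and 0.21 (SE 0.18) without both. Ldhb had 230 ± 23.2 in Het, a log2 fold change of 0.04 (SE 0.21, limma adjusted p = 0.965) that was 0.10 without WT 1 and turned to −0.11 without WT 3 and −0.03 without Het 1. Ldhd did not pass the filter on low values and was not tested. Of the 3 members tested, 0 were called, beside 0% of 14216 genes, 0 had an unadjusted p under 0.05, beside 3.34%, and 0 had no overlap, beside 13.3%. Over all genes 475 had an unadjusted p under 0.05, and edgeR called 0 and DESeq2 31, none of them a member.

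Between KO and Het animals the log2 fold change of Ldha was −1.55 (SE 1.88), −2.75 without Het 1, and it turned to 0.77 (SE 0.40) without Het 2, the Het animal in which Ldha was high. That of Ldhc was 1.31 (SE 1.09) and turned to −0.04 (SE 0.17) without Het 1. Ldhb had a log2 fold change of 0.15 (SE 0.18, limma adjusted p = 0.973), which was 0.22 without Het 1, and Ldhd one of 1.53 (SE 1.25, limma adjusted p = 0.973), which was 0.37 without Het 1. Of the 4 members tested, 0 were called, beside 0.0558% of 14343 genes, 0 had an unadjusted p under 0.05, beside 3.56%, and 0 had no overlap, beside 10%. The tests by edgeR and DESeq2 called 0 of the 4, beside 5 and 38 of the 14343 genes. The 3 comparisons share animals in pairs and are not independent.

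**Figure D3:**
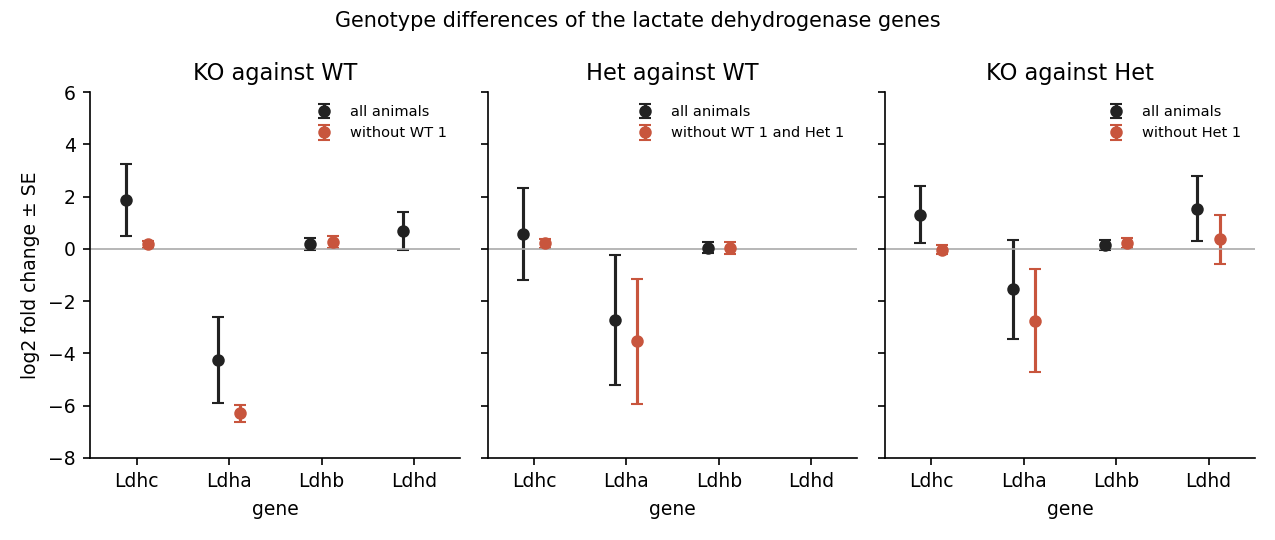
Log2 fold change ± SE of Ldhc, Ldha, Ldhb and Ldhd in the 3 genotype comparisons, with all animals (black) and without WT 1, Het 1 or both (red). Ldhc moves to near 0 in each panel when these animals are left out, from 1.87 to 0.17 in KO against WT, while the Ldhb points stay near 0. Ldhd has no point where it did not pass the filter.

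Steps of this kind were counted over all genes with a mean of at least 50 normalized counts. A gene was said to have a step when animals next to each other in level were at least 8-fold apart in normalized count plus 1. This threshold was chosen after the Ldha and Ldhc values were seen. Of 8539 genes, 560 (6.56%) had a step. Ldhc was low in WT 1 and Het 1 and high elsewhere, a division shared by 37 other genes, 3 of them on chromosome 7. Ldha was high in WT 2, WT 3 and Het 2, a division shared by 12 other genes, 0 of them on chromosome 7. WT 1 was on the low side in 363 of the 560 genes (64.8%), Het 1 in 253, Het 3 in 180 and KO 2 in 164, and the others in 66 to 152. The most frequent division, with 154 genes, had WT 1 alone on the low side.

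**Figure D4:**
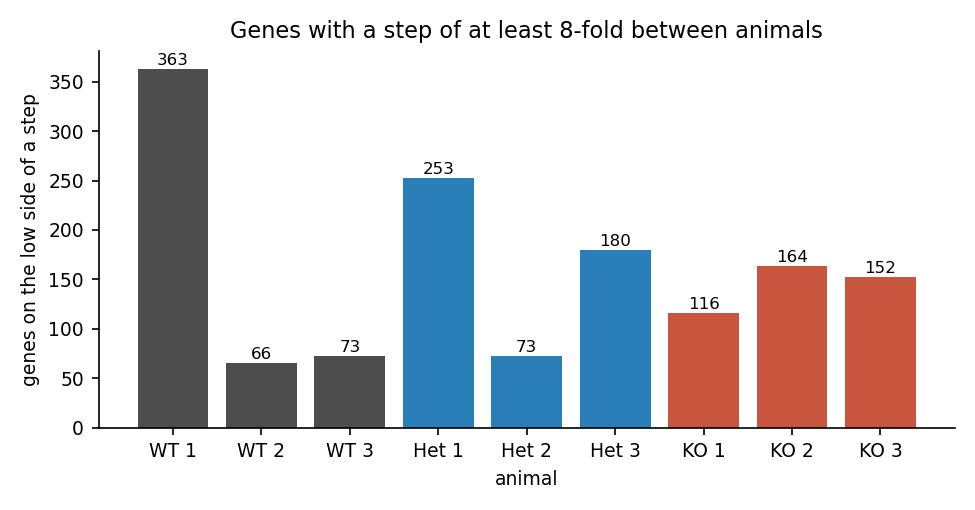
Number of the 560 genes with a step for which each animal lay on the low side (bars from 0, coloured by genotype). WT 1 has the highest bar at 363, followed by Het 1 at 253, and WT 2 has the lowest at 66.

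As sums, the marker lists did not divide the animals as Ldhc did. A sum chiefly shows its most abundant genes, such as Clu in the Sertoli list, at 3260 in WT 1. Where Ldhc was low, the 6 spermatocyte markers summed to 11625 in WT 1 and 9631 in Het 1, against 8371 to 11945 in the other animals. The round spermatid markers summed to 9121 in WT 1, the highest of the 9, and 5949 in Het 1, and the elongating spermatid markers to 233848 and 179063. The spermatogonia list summed to 236 and 177 against 164 to 376 in the others, the Leydig list to 3744 and 1674 against 1954 to 3128, and the Sertoli list to 3852 and 2392 against 2628 to 5037. Macrophage markers summed to 61.9 in WT 1, the lowest of the 9, and 102 in Het 1, and erythrocyte markers to 1243 and 1091. Pgk2, a germ cell transcript, was at 4294 in WT 1, the highest of the 9. Of all the markers, 3 had steps of their own: Hspa2, a meiotic chaperone, was at 98.3 and 102 in Het 1 and KO 2, Amhr2, a Sertoli cell receptor, was at 3.8 to 15.5 in WT 1, Het 1, Het 3, KO 2 and KO 3, and Rhox5, a homeobox gene, was at 16.1 and 11.3 in WT 1 and Het 1, the division of Ldhc. Others of the Sertoli list varied too: Gata4 was at 0 in WT 1, Het 1, Het 3 and KO 2, and Wt1 at 9.90 in WT 1 but 168 in Het 1. Sox9 and Cldn11 were not low there, at 144 and 416 in WT 1 and 314 and 459 in Het 1. The part of these markers in the Ldhc and Ldha values was not tested.

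Genes within 100 kb of Ldha and Ldhc did not share 1 pattern. Gtf2h1, which encodes a subunit of the general transcription factor TFIIH and ends 17674 bases before Ldha, had 3.71 normalized counts in WT 1 and 659 to 953 in the other 8 animals. Tsg101, an ESCRT subunit whose gene lies 10806 bases beyond Ldhc on the opposite strand, had 118 to 155 in WT 2, WT 3, Het 2 and Het 3. In the other 5 it had 9.45 to 18.0, a gap of 6.29-fold in normalized count plus 1. Thus WT 1 was low for all 4 of these genes, while Het 1, Het 3 and the KO animals were low for some and high for others. Hps5 stayed between 45.4 and 79.4, Uevld, which holds a lactate/malate dehydrogenase-like domain, between 10.6 and 27.4, and Saa1 between 3.87 and 16.4.

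**Figure D5:**
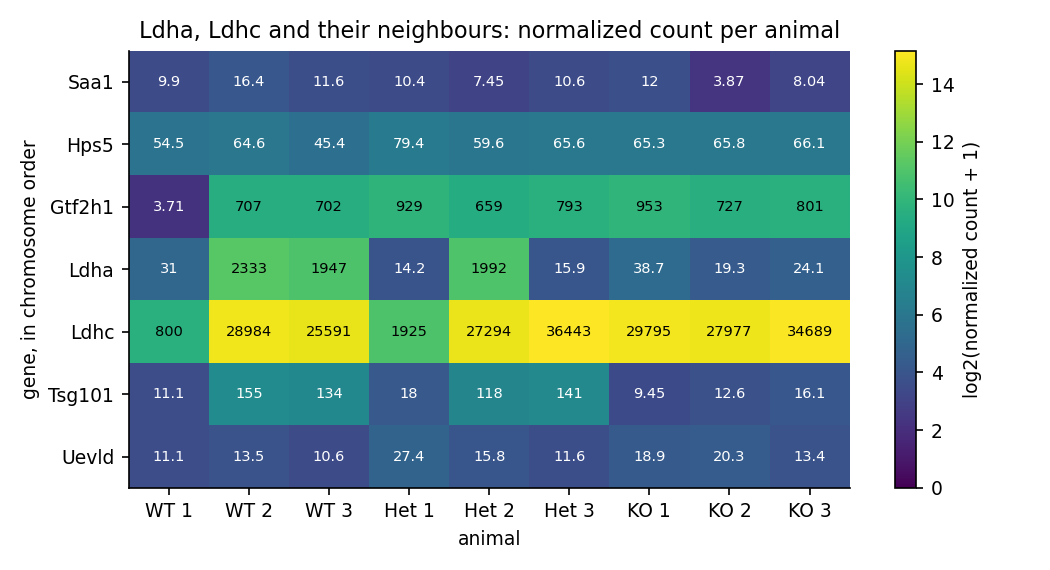
Normalized counts (numbers) and log2(normalized count + 1) (colour) of Ldha, Ldhc and the neighbouring genes with at least 10 counts in 3 animals, in chromosome order and by animal. Gtf2h1, Ldha, Ldhc and Tsg101 are each low in a different set of animals, with WT 1 in all 4 sets, while Hps5 stays between 45.4 and 79.4.

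Of the 8 neighbours of the other members with at least 10 counts in 3 animals, 1, Bcar1, had animals next to each other in level at least 8-fold apart. Golt1b, 86391 bases from Ldhb, had 28.5 to 59.0 normalized counts. Ldhal6b lies within the body of Tmem242, on the same strand, and of Gm29050, on the opposite strand, which had 502 to 853 and 140 to 3326. Further from Ldhal6b, Arid1b had 31.3 to 105.8 and Zdhhc14 35.0 to 52.9. Ldhd overlaps the end of Znrf1, which runs on the opposite strand and had 80.7 to 181, and whether the counting told strands apart is not given in the sources used here, so Ldhd is uncertain in this respect too. Zfp1 had 12.4 to 46.4, and Bcar1, 80100 bases from Ldhd, was at 2.48 in WT 1 and 75.3 to 135.4 elsewhere.

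Genes were ranked by Pearson's r with each member over the 9 animals on log2(normalized count + 1), among genes with a mean of at least 50. For Ldha and Ldhc the animals fall into separate levels, so r chiefly says whether a gene divides them the same way, and the libraries are shared. Closest to Ldha were Tmem53 (r = 0.990), Pard6a, a cell polarity gene (0.988), and Cnbd2, Kbtbd11 and 4930483J18Rik (0.977 each). Tmem53 had 1520 to 1627 normalized counts in WT 2, WT 3 and Het 2 and 29.3 to 82.5 in the others. Running against Ldha were Foxp1, a forkhead factor (−0.990), Gdap2 and Lrrc14 (−0.978 each). Foxp1 had 91.6 to 99.6 where Ldha was high and 238 to 385 elsewhere.

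Closest to Ldhc were Stag3, a meiotic cohesin subunit, and Art3 (0.998 each), Crls1, the cardiolipin synthase (0.997), Mrps10 (0.996) and Nme6 (0.995). Stag3 had 57.0 and 105 normalized counts in WT 1 and Het 1 and 1217 to 1580 in the others. Running against Ldhc were Gorasp1, a Golgi stacking protein (−0.984), Ttll4 (−0.974) and Mocs3 (−0.966). Ttll4, which adds glutamate chains to proteins, had 347 and 184 in WT 1 and Het 1 and 14.6 to 33.8 elsewhere. The lists of Ldha and Ldhc share no gene.

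Ldhb, with no step, was most like Otud5 (0.963), Prelid1 (0.929), Arxes2 and Lsr (0.907 each) and Fam210b (0.905), and least like 1700030O20Rik (−0.920), Gm4787 (−0.900) and Sncaip (−0.866). These follow small differences, since Otud5 ran only from 41.5 to 73.5, with KO 2 highest for Ldhb and for Otud5. Ldhd, at a mean of 11.1, was most like Bcl9l (0.931), Gpt2 (0.922), Gamt (0.908), Cdk2ap2 (0.906) and Ptpre (0.902), and least like Gosr2 (−0.888), Eif1ax (−0.881) and Cdk1 (−0.879). Bcl9l had 3.78 normalized counts in Het 1, where Ldhd was at 0, and 128 in KO 2, where Ldhd was highest.

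Genes that lead to or from lactate were counted by list. Of 28 glycolysis genes, 23 were tested in KO against WT, with 7 higher, 16 lower and 0 called, and a median log2 fold change of −0.44 against 0.02 for all genes tested. Without WT 1 the list median was −0.41, with 0 called. In the other 2 comparisons 0 were called, and the medians were −0.25 in Het against WT (−0.16 without WT 1 and −0.06 without Het 1) and −0.20 in KO against Het (−0.23 without Het 1). An unadjusted p under 0.05 was found for 7 of the 23 in KO against WT (10 without WT 1), 1 in Het against WT and 3 in KO against Het, beside 8.07%, 3.34% and 3.56% of all genes tested, and neither edgeR nor DESeq2 called any. Gapdhs, the sperm form of glyceraldehyde-3-phosphate dehydrogenase, averaged 4771 ± 588 normalized counts (WT), 3686 ± 1682 (Het) and 2739 ± 396 (KO), each with the SD of 3 animals, with a limma adjusted p of 0.529 in KO against WT. Pgam2, a phosphoglycerate mutase, had 4391 ± 1177, 2485 ± 778 and 2315 ± 511, and Pgk2, the testis phosphoglycerate kinase, 3501 ± 740, 2860 ± 40.6 and 2410 ± 622. Summed spermatid markers were also lower in KO, with no overlap with WT, beside 19.9% of all genes tested without overlap. Taken singly, Tssk1, Tssk2, Tnp1, Tnp2 and Prm2 did not overlap, while Acrv1, Spaca1, Acr, Spata16 and Prm1 did. The elongating spermatid list summed to 233289 to 249362 in WT and 123388 to 199672 in KO, and the round spermatid list to 7605 to 9121 in WT and 4199 to 6339 in KO, and their part was not tested.

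Pkm, which encodes the pyruvate kinase that supplies pyruvate to lactate dehydrogenase, had steps between animals as Ldha and Ldhc did. Its normalized counts were 40.9 in WT 1, 21.7 in Het 1 and 38.1 in Het 3, and 535 to 835 in the other 6. Pfkp, a phosphofructokinase, was at 7.41 in Het 3, 14.6 in KO 1 and 32.9 in KO 2 and at 357 to 596 in the others. Pfkm, with a mean of 33.1, had 203 in WT 3 and 4.47 to 25.1 elsewhere. As sets, the low animals of Pkm and of Pfkp differed from those of Ldhc and of Ldha, but they overlapped with them. Pkm was low in WT 1 and Het 1, as Ldhc was, and all low animals of Pkm and Pfkp were also low for Ldha.

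Of 12 carriers of lactate, pyruvate and glucose in the table, 9 were tested and 0 called in any comparison, by limma, edgeR or DESeq2. In KO against WT, 6 were higher and 3 lower, with a median log2 fold change of 0.17, which was 0.02 without WT 1. The medians were 0.26 in Het against WT, which was 0.09 without WT 1 and turned to −0.04 without Het 1, and −0.08 in KO against Het, turning to 0.24 without Het 1. Slc16a7, a monocarboxylate transporter for pyruvate and lactate, was at 23.3 in Het 3 and 24.1 in KO 3 and at 504 to 768 in the other 7. Slc16a3, a lactate exporter, was at 2.48 in WT 1 and 75.2 to 94.2 elsewhere. Slc2a3, a glucose transporter, had 1919 to 3420 normalized counts, Mpc2, a subunit of the mitochondrial pyruvate carrier, 1690 to 3151, and its partner Mpc1 18.6 to 64.2. None of these carriers divided the animals exactly as Ldhc did, though Slc16a3 was low in WT 1.

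Of 18 genes of pyruvate use, 16 were tested and 0 called in any comparison by the 3 tools. Median log2 fold changes were 0.15 in KO against WT (0.02 without WT 1), 0.12 in Het against WT (−0.02 without WT 1 and 0.17 without Het 1) and 0.01 in KO against Het (−0.01 without Het 1). Pdha2, the germ cell subunit of pyruvate dehydrogenase, had 288 to 514 normalized counts, and its partner Pdhb 631 to 806. Dld had 86.7 in WT 1 and 191 to 311 elsewhere, and Pdk2, a kinase that inhibits pyruvate dehydrogenase, 562 in WT 1 and 149 to 314 elsewhere. Me1, a malic enzyme, had 394 in WT 1 and 740 to 911 elsewhere. Me2 had 26.4 ± 3.38 in WT and 53.9 ± 14.9 in KO (SD, n = 3 each; log2 fold change 0.98, SE 0.29, limma adjusted p = 0.610).

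All 13 genes of NADH shuttles and malate dehydrogenases were tested and 0 were called in any comparison by the 3 tools. The median log2 fold change was −0.03 in KO against WT, turning to 0.10 without WT 1, while it was 0.16 for Het against WT (0.02 without WT 1 or without Het 1) and 0.01 for KO against Het (0.10 without Het 1). Gpd2, the mitochondrial glycerol-3-phosphate dehydrogenase, was at 182 in WT 1 and 161 in Het 1 and at 1951 to 3694 in the other 7, and it is the 1 gene of the 5 lists that divided the animals as Ldhc did. Mdh2, the mitochondrial malate dehydrogenase, was at 17.01 in Het 1, 28.1 in KO 2 and 12.5 in KO 3, and at 204 to 397 in the others. Mdh1b had 357 to 504, Got1l1 116 to 262 and Gpd1l 0 to 24.2, with 0 in WT 1.

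Of the 9 enzymes around D-lactate and hydroxyacids, 8 were tested and 0 called in any comparison by the 3 tools. In KO against WT all 8 were higher, with a median log2 fold change of 0.29, and without WT 1, 6 were higher and 2 lower, with a median of 0.23. The medians were 0.44 in Het against WT (0.20 without WT 1 and 0.39 without Het 1) and 0.01 in KO against Het, with or without Het 1. Cyct, the testis cytochrome c, had 135 in WT 1 and 395 to 739 elsewhere, and its somatic counterpart Cycs 192 to 339. Hagh, which releases D-lactate from its glutathione thioester, had 414 in WT 1 and 752 to 1106 elsewhere. D2hgdh had 11.1 to 29.0 and Hao2 4.95 to 20.1. WT 1 was the lowest of the 9 animals for Cyct, Hagh, D2hgdh and Hao2.

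Across the 5 lists, 46 genes had a mean of at least 50 normalized counts, and 5 of them, Pfkp, Pkm, Slc16a3, Slc16a7 and Gpd2, had a step of at least 8-fold, beside 6.56% of all genes. Of the members, Ldha and Ldhc had such a step and Ldhb did not, and Ldhd and Ldhal6b were below that mean.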

How the data were processed

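Total RNA from 9 testes was made into QuantSeq 3′ mRNA libraries and sequenced in 50-base reads. The authors trimmed reads with Trim Galore 0.4.5, mapped them to GRCm38 using HISAT2 2.1, built a merged assembly with StringTie 1.3.3 on which genes were counted, and left out pseudogenes. The deposited signal is the count of a gene over the DESeq2 size factor of that animal. Multiplied by that factor, the deposited values came out as whole counts for 100% of nonzero values, within 0.01 count. According to the paper, its counts were made by a Python script that comes with StringTie. Whole counts do not show that each is 1 observed read. The numbers of reads and the Poisson intervals given here are therefore nominal. Counts per locus of the merged assembly depend on how that assembly divided neighbouring genes.

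The members and lists were chosen with earlier results of these data known. Groups and numbers came from the sample titles. Genotypes were compared pairwise, 3 animals each, with limma 3.58.1 (eBayes with a trend) in R 4.3.3 on log2(value + 1), over genes with at least 10 in at least 3 of the animals compared, with Benjamini-Hochberg adjustment over all of them. Genes were called at an adjusted p under 0.05 and an absolute log2 fold change over 1.5. edgeR 4.0.16 and DESeq2 1.42.0 on the recovered reads were alternatives, as were pseudocounts 0.5 and 5, no filter, TMM factors, all 9 animals in 1 fit, replicate numbers as a block and each animal left out. The functions were tested on simulated data. Annotation came from GENCODE vM21 (38509 genes matched), promoters from RefSeq, and all 5 members matched. Stretches were taken from the transcript of each member with the longest coding sequence. Steps were defined after seeing the data.

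Named genes are the members, the 5 most and 3 least correlated genes of each member with a mean of at least 10, of each list the genes called, the 3 of highest mean and the 3 of largest KO against WT change, neighbours within 100 kb with at least 10 counts in 3 animals, and Pfn3. Besides marker genes, those outside this rule (Gm5514, Gm5452 and Ldha-ps2) were named after their values were seen. The list member Mpc1l was not analysed here.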

Additional observations from a re-analysis of the deposited data

How the results depend on the processing

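The number of genes called over all genes depended on the test and on single animals. DESeq2 called 101 in KO against WT, 31 in Het against WT and 38 in KO against Het, against 5, 0 and 8 by limma, and edgeR called 5 in KO against Het. With all 9 animals in 1 fit there were 3, 3 and 4. In Het against WT a pseudocount of 5 gave 2, no filter 3 and TMM factors 1. The titles name no shared litter, and correlations of deviations between animals of the same number ran from −0.19 to 0.27 over the 9 pairs. In Het against WT they were 0.22, 0.27 and −0.06 for numbers 1, 2 and 3. WT 1 and Het 1, both low for Ldhc, share a number. With the replicate number as a block the SE of Ldhc in Het against WT fell from 1.75 to 0.31. Whether a number marks something shared was not tested. With this block 0 genes were called in KO against WT and 0 in KO against Het. Leaving out each animal gave 0 to 49 calls in KO against WT (49 without WT 1, 11 without KO 1), 0 to 3 in Het against WT (3 without Het 2) and 0 to 39 in KO against Het (39 without Het 2). Over these fits the log2 fold change of Ldha ran from −6.29 to −3.19 in KO against WT, from −5.04 to −1.52 in Het against WT and from −2.75 to 0.77 in KO against Het, that of Ldhc from 0.17 to 2.76, from −1.13 to 1.91 and from −0.0392 to 2.08, and that of Ldhb in Het against WT from −0.11 to 0.11. By edgeR and DESeq2, which average counts and not logs, Ldha was at −4.61 and −4.62 in KO against Het and at −1.09 in Het against WT. The other 143 of 151 refitted member values kept their direction and side of the threshold or, for Ldha and Ldhc, moved by less than 1 SD, block fits included. All 54 values of the isoform balance moved by less than the SD of their genotype. Leaving out 1 of 3 animals cannot move a mean by as much as that SD, so those refits are no check of stability. The Het mean log2 ratio of Ldhb to Ldha, for example, went from 1.58 to 0.30 without Het 1 and to 3.92 without Het 2. All 80 of the list calls stayed at 0. With 3 animals a genotype and 15 to 45 reads of Ldha in its low animals, counting error is small beside the gap, while Ldhd, at up to 31 reads, is limited by depth.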
